A study of Homo sapiens with 33 samples.

Results

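The interleukin-6 (IL-6) family was examined in high-grade serous ovarian carcinoma lines that are sensitive or resistant to platinum. The 10 genes were taken by symbol from the 29744 genes of the expression tables, by a rule that uses no measured value. They are 4 ligands (IL6, LIF, IL11 and CLCF1), the ligand-binding receptor IL6R, the shared signalling receptor IL6ST (gp130), the signalling receptors LIFR and OSMR, and the kinases JAK1 and JAK2. All 10 had values in every library and an adjusted p in every comparison.

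As background, these cytokines signal through receptor complexes that contain gp130. IL-6 and IL-11 first bind their own alpha receptors and then bring gp130 molecules together, whereas LIF binds LIFR paired with gp130. CLCF1 acts through CNTFR, LIFR and gp130. Oncostatin M, encoded by OSM, uses OSMR with gp130. The receptor chains carry JAK kinases, which phosphorylate STAT3, and STAT3 raises its own inhibitor SOCS3. In ovarian carcinoma the family is known for autocrine and stromal IL-6 and for its link to inflammation and ascites.

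The mRNA of 11 human lines was sequenced, each line in 3 libraries, which gave 33 libraries. The parental lines OVCAR3 and OVCAR4 are established and sensitive to platinum. OVCAR3 ResA, OVCAR3 ResB, OVCAR4 ResA and OVCAR4 ResB were selected from them independently by repeated short cisplatin pulses at rising doses and were not kept in the drug. PEA1 (sensitive) and PEA2 (resistant) are commercial lines of 1 patient, and PEO1 (sensitive), PEO4 and PEO6 (resistant) are commercial lines of another. The sample labels name the line, and the roles come from the study's text. Each resistant line is 1 selected population or 1 isolate, so a difference within a family is between lines and not between repeated selections. Pairs of the same family share the libraries of their sensitive line.

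Estimated counts per library, in units of 10 to the power 6, were 18.1 to 43.4 (median 30.6). Levels are given as TPM, the share of transcripts with gene length allowed for, and changes as DESeq2 log2 fold changes with their standard error (SE) and Benjamini-Hochberg adjusted p. The part of the counts on the mitochondrial ribosomal RNAs RNR1 and RNR2 ran from 1.12% to 14.8%. It differed strongly within some lines. It was 9.23% in OVCAR4 ResA replicate 1 against 2.02% and 2.09% in the other replicates, and 13.1% in OVCAR4 ResB replicate 1 against 2.47% and 2.39%. OVCAR3 ResB replicate 3 had 1.12% against 5.97% and 8.88%. The TPM of genes in general also shifted. Over genes with a mean of at least 1 TPM, the median difference in log2(TPM + 1) was 0.44 in OVCAR4 ResA against OVCAR4. It was 0.48 in OVCAR4 ResB against OVCAR4. DESeq2 medians over the genes tested there lay between -0.02 and 0.02, and the changes below are on that scale.

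The epithelial label held in 10 of the 11 lines by EPCAM and KRT7. Of the 8 epithelial and ovarian carcinoma markers, 6 reached 1 TPM in all libraries of PEA1 and 7 in each OVCAR4 line. All 8 did so in the other lines. The 8 markers summed to 403.5 to 445.6 TPM in PEA1 and 4017 to 4321 TPM in PEA2. PEA1 stood apart, with EPCAM at 14 TPM against 575 TPM in PEA2, KRT7 at 2.95 TPM and MUC16 at 0.0696 TPM, while COL1A1 was at 88.4 TPM and PDGFRB at 6.55 TPM. DCN was at 0 in all PEA1 libraries, and the summed level of the 6 fibroblast markers was 69.6 to 116 TPM in PEA1 and 0.693 to 1.17 TPM in PEA2. Of those 6 markers, 2 reached 1 TPM in all PEA1 libraries. The 6 leukocyte markers, of which CD68 gave most, summed to 55.2 to 57.8 TPM in PEA2 and 11 to 24.1 TPM in PEA1, with CD3E at 0 in both and PTPRC at 0 in PEA1. The part of these marker differences in the PEA2 results was not tested.

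IL6 (chr7:22727200-22731998, GRCh38.p14) encodes the name-giving cytokine of the family. Its level was high in the PEA family and low elsewhere. It was 67.9, 116 and 50.9 TPM in the libraries of PEA1 and 177, 160 and 182 TPM in those of PEA2. OVCAR4 ResB followed with 21.6, 12.9 and 24.8 TPM. These 3 lines did not overlap with each other or with any other line. OVCAR3 ResB (3.96, 6.74 and 9.72 TPM), OVCAR4 ResA (4.61, 5.73 and 4.68 TPM) and PEO4 (3.67, 4.12 and 4.98 TPM) came next and overlapped in that order. The remaining lines, OVCAR3, PEO6, PEO1, OVCAR3 ResA and OVCAR4, had means of 0.929 to 1.68 TPM, and none was separate from its neighbour. In the highest line the mean was 186 times that in the lowest, OVCAR4.

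IL6 was higher in the resistant line in 5 of the 7 pairs. In bulk RNA, more expressing cells and more RNA per cell cannot be told apart. The rise was 2.03 ± 0.54 (SE) on the log2 scale in OVCAR3 ResB (adjusted p = 0.0042), 1.93 ± 0.63 in OVCAR4 ResA (adjusted p = 0.024) and 3.82 ± 0.55 in OVCAR4 ResB (adjusted p = 2.0e-10). In PEA2 it was 1.33 ± 0.32 (adjusted p = 0.00015) and in PEO4 1.85 ± 0.46 (adjusted p = 0.00040). The libraries of the compared lines did not overlap in any of these 5 pairs. All genes tested were called higher at rates of 4.1%, 6.68%, 9.09%, 23.3% and 16.6% in the same 5 pairs. OVCAR3 ResA had a log2 value of -0.77 ± 0.60 (adjusted p = 0.30) and PEO6 of -0.04 ± 0.74 (adjusted p = 0.97). The 95% intervals of those 2 differences, -1.94 to 0.40 and -1.49 to 1.41, are wide, and the libraries of OVCAR3, OVCAR3 ResA, PEO1 and PEO6 held 12 to 39 IL6 counts.

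The IL6 calls differed in whether they were kept when a replicate number was left out. Such a fit has fewer libraries in each line, so a lost call does not by itself show dependence on single libraries. OVCAR4 ResB and PEA2 were called whichever replicate number was left out of both lines, with log2 values of 3.24 to 4.40 and 0.90 to 1.82. PEO4 was not called without replicate 1 (1.71, adjusted p = 0.071). OVCAR3 ResB was not called without replicate 1 (1.68, adjusted p = 0.25) or 2 (2.26, adjusted p = 0.18). OVCAR4 ResA was not called without replicate 1 (1.54, adjusted p = 0.058), 2 (2.10, adjusted p = 0.40) or 3 (2.16, adjusted p = 0.47), and in edgeR the adjusted p was 0.10 there and 0.056 in OVCAR3 ResB.

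LIF (chr22:30240453-30246759), which acts on LIFR with gp130, was expressed everywhere. Outside PEA2 its 30 library values ran from 4.54 to 25.6 TPM. PEA2 had 234, 240 and 209 TPM against 19.9, 15.3 and 15.7 TPM in PEA1. That was a rise of 3.89 ± 0.22 on the log2 scale (adjusted p = 1.5e-66), the largest change of any member in a pair. In OVCAR3 the level was 4.54, 6.46 and 5.08 TPM, and it was higher in both derived lines. OVCAR3 ResA had 18.7, 24.8 and 19.1 TPM (1.82 ± 0.14, adjusted p = 2.5e-38) and OVCAR3 ResB 12.3, 16.5 and 25.6 TPM (1.60 ± 0.33, adjusted p = 6.4e-05). Both ranges lay above that of OVCAR3. Without replicate 2 the OVCAR3 ResB value was 1.63 with an adjusted p of 0.066. The OVCAR4 and PEO pairs gave log2 values of -0.25 to 0.18 and no call.

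IL11 (chr19:55364382-55370463) was the ligand with the lowest levels, 0.0777 to 2.84 TPM over all libraries and 3 to 122 counts. Every neighbour in the order of lines overlapped. Its 1 call was in PEO6, with 0.331, 0.204 and 0.0777 TPM against 1.13, 1.42 and 1.68 TPM in PEO1, a log2 change of -2.99 ± 0.72 (adjusted p = 0.00019). The 2 lines did not overlap, and PEO6 held 14, 8 and 3 counts. Without replicate 3 the change was -2.33 with an adjusted p of 0.054. With the mitochondrial share in place of the replicate number, IL11 was also called lower in PEO4 (-1.80, adjusted p = 0.0039) and higher in OVCAR4 ResB (2.14, adjusted p = 0.0026) and OVCAR3 ResA (1.19, adjusted p = 0.037), a fit added after the data had been seen.

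CLCF1 (chr11:67364168-67374177), a ligand of the CNTFR complex, was highest in the PEO family. Its 9 libraries there held 39.6 to 68.8 TPM, and the 24 others 3.59 to 41.7 TPM. It was not called in any pair, with log2 values of -0.59 to 0.73. With the mitochondrial share as a term in place of the replicate number, a fit added after the data had been seen, it was called higher in OVCAR4 ResA (1.59, adjusted p = 1.1e-06) and OVCAR4 ResB (1.75, adjusted p = 5.5e-10). In PEO6 against PEO1 the value was 0.53 ± 0.24 (adjusted p = 0.066), with libraries that did not overlap.

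**Figure D1:**
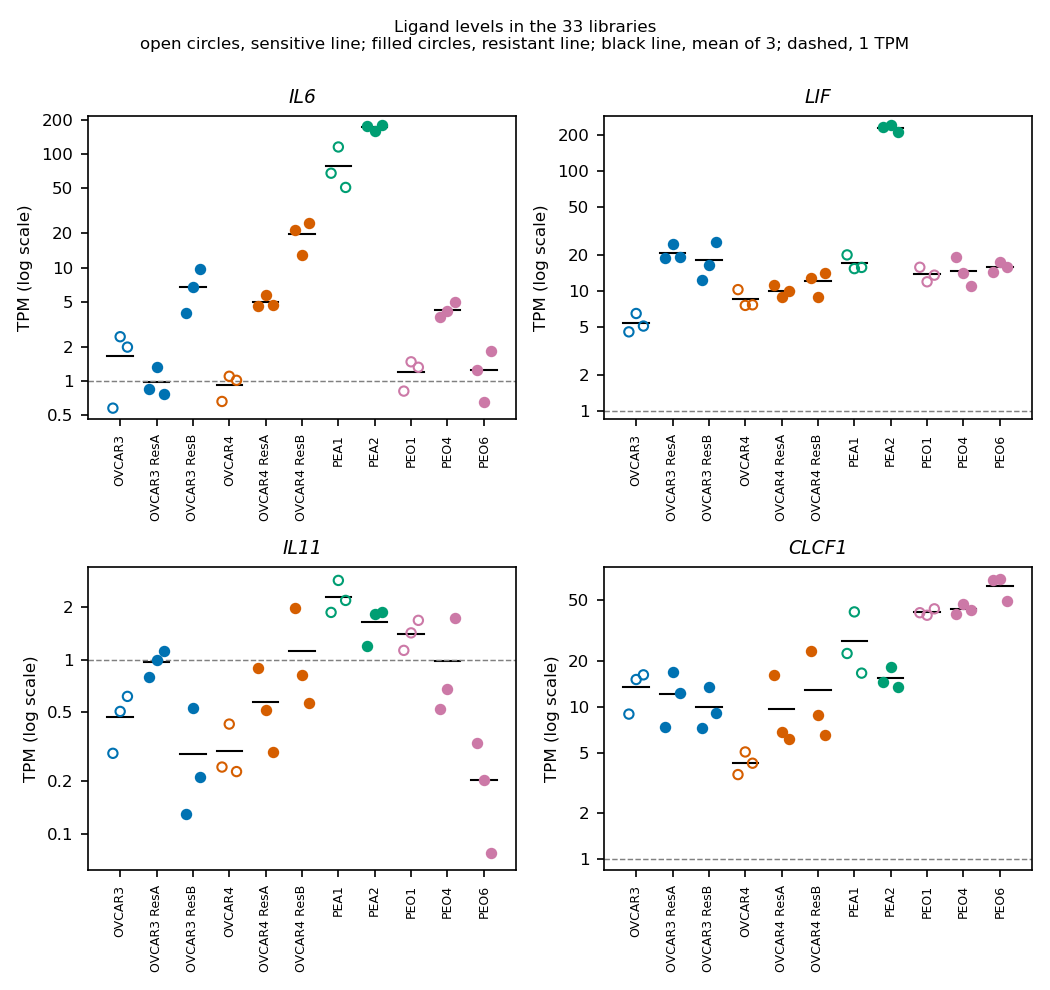
Levels of the 4 ligands in the 33 libraries, as TPM on a log axis, by line; points are libraries, black lines are means of 3 libraries and the dashed line is 1 TPM. IL6 and LIF are highest in PEA2 (means 173 and 228 TPM), IL11 lies at or below 2.84 TPM, and CLCF1 is highest in PEO6 (mean 61.8 TPM).

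RefSeq promoter entries (GRCh38.p14, 250 bases before to 50 after each start) were matched for 8 of the 10 members, with 15 entries. Both strands were searched for the general NF-kB consensus, chosen after the IL6 window had been read, and for TGANTCA (AP-1) and TTCNNNGAA (STAT). The NF-kB consensus was found in IL6 and IL6ST and in 11.3% of all 35116 entries. AP-1 letters were found in IL6R, OSMR and IL11 and in 7.71% of all entries, and STAT letters in LIFR and in 7.66%. Parts of the entries of IL6, called in most pairs, of IL11, the 1 ligand with a called fall, and of LIFR, called in both directions, are shown 5' to 3' with the matched letters in capitals. The IL6 stretch is chr7:22727080-22727199 (plus strand), the IL11 stretch chr19:55370464-55370583 (minus strand) and the LIFR stretch chr5:38595486-38595605 (minus strand). No printed match overlapped another, and a match is a description of letters and not of a bound site.
IL6: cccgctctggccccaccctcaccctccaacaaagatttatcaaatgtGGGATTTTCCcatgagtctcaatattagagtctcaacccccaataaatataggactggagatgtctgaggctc
IL11: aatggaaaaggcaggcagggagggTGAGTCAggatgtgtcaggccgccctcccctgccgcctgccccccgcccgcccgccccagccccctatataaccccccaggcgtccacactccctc
LIFR: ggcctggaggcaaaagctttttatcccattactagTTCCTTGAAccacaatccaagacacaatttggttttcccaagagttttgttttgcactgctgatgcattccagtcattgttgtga

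The IL6 match began 73 bases before the annotated start of the gene and the IL11 match 96. The LIFR match began 165 bases before a start that lies inside the gene (chr5:38474668-38608403, minus strand), not at its outer end.

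IL6R (chr1:154405343-154469450), the alpha receptor that makes a cell able to bind IL-6, separated the PEO family from all other lines. Its 9 PEO libraries held 0.185 to 0.432 TPM, or 15 to 47 counts, and the 24 others 1.29 to 5.52 TPM. Within the other families 2 pairs were called. OVCAR3 ResA had 3.8, 3.95 and 4.31 TPM against 1.49, 1.63 and 1.36 TPM in OVCAR3, a log2 change of 1.29 ± 0.20 (adjusted p = 2.0e-09). OVCAR4 ResB had 4.35, 5.25 and 5.52 TPM against 1.3, 1.72 and 1.61 TPM in OVCAR4, a log2 change of 1.14 ± 0.38 (adjusted p = 0.020). Neither pair overlapped. The OVCAR3 ResA call held whichever replicate was left out. In OVCAR4 ResB the adjusted p was 0.22 without replicate 2 and 0.43 without replicate 3. PEA2 was uneven, at 3.94, 3.97 and 1.61 TPM, and its log2 value of 0.59 ± 0.31 was not called (adjusted p = 0.11).

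IL6ST (chr5:55935095-55994963), the gp130 chain that all these receptors share, was present in every library at 6.67 to 79.3 TPM. No line was separate from its neighbour in the order of means, from PEA2 (67.5 ± 14.2 TPM, SD, n = 3) to OVCAR3 (9.03 ± 2.88 TPM). It rose in PEA2 (1.11 ± 0.27, adjusted p = 0.00013) from 37.8, 20 and 57.4 TPM to 79.3, 71.5 and 51.7 TPM, with some overlap. That call was lost in the 3 limma fits (adjusted p of 0.082 to 0.17), and with the mitochondrial share in place of the block the value was 0.56 (adjusted p = 0.028). Both OVCAR4 derivatives were called higher. OVCAR4 had 13.8, 7.70 and 7.13 TPM, OVCAR4 ResA 15.8, 46.6 and 49.5 TPM (1.13 ± 0.40, adjusted p = 0.041) and OVCAR4 ResB 14.8, 52.6 and 47.2 TPM (1.12 ± 0.41, adjusted p = 0.037). Replicate 1 of each derived line was close to OVCAR4 replicate 1, and the other libraries were several-fold higher. PEO6 fell by 0.58 (SE 0.21, adjusted p = 0.020), with a value of -0.46 to -0.66 and no call whichever replicate was left out.

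The OVCAR4 calls of IL6ST differed between settings. Whether the library composition described above, the fits with fewer libraries or the block accounted for this was not tested. Replicate 1 of both derived lines had the high mitochondrial RNA share, while OVCAR4 itself had 5.18% in replicate 1, 14.8% in replicate 2 and 12.0% in replicate 3. Without replicate 1 the log2 changes were 1.62 (adjusted p = 1.1e-14) in OVCAR4 ResA and 1.63 (adjusted p = 7.2e-21) in OVCAR4 ResB. Without replicate 2 they were 0.97 (adjusted p = 0.59) and 0.89 (adjusted p = 0.52), and without replicate 3 they were 0.76 (adjusted p = 0.95) and 0.80 (adjusted p = 0.70). With the log2 mitochondrial share in place of the block, a fit added after the data had been seen, they were 0.49 (adjusted p = 0.041) and 0.63 (adjusted p = 0.00049). The library with the highest mitochondrial share of its line had the lowest TPM of IL6ST in 7 of 11 lines, of LIFR in 7, of JAK1 in 8 and of JAK2 in 7. For IL11 and CLCF1 the opposite held, and it had the highest TPM in 10 and 7 lines.

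**Figure D2:**
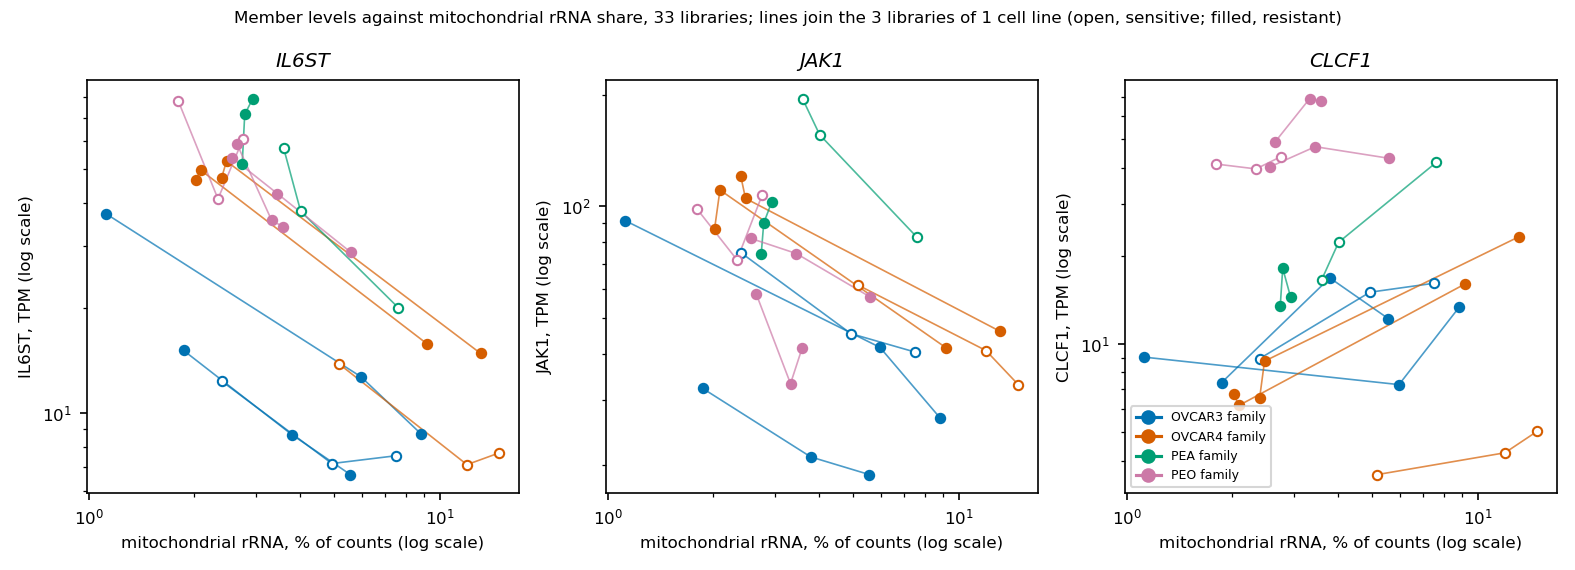
TPM of IL6ST, JAK1 and CLCF1 against the mitochondrial rRNA share of counts, both on log axes; each point is a library and lines join the 3 libraries of a cell line. In OVCAR4 ResB, IL6ST is 14.8 TPM at a share of 13.1% and 52.6 and 47.2 TPM at 2.47% and 2.39%, while CLCF1 is 23.2 TPM at the high share and 8.74 and 6.56 TPM at the low ones.

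LIFR (chr5:38474668-38608403), the receptor of LIF and of the CLCF1 complex, was low in all lines, 1.01 to 7.81 TPM, and it was called in both directions. It fell in both resistant PEO lines. PEO1 had 7.81, 4.50 and 6.27 TPM, PEO4 2.16, 1.73 and 1.01 TPM (-1.92 ± 0.22, adjusted p = 7.6e-17) and PEO6 1.67, 1.69 and 2.20 TPM (-1.74 ± 0.24, adjusted p = 1.6e-11). No library of PEO4 or PEO6 reached the lowest of PEO1, and both calls held in each of the 14 alternative analyses. It also fell by 0.78 (SE 0.19, adjusted p = 0.00020) in OVCAR3 ResA, where the ranges overlapped and the adjusted p was 0.064 without replicate 3.

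LIFR was higher in OVCAR4 ResB (2.08, 5.78 and 5.87 TPM against 1.74, 1.19 and 1.01 TPM, 1.15 ± 0.41, adjusted p = 0.034) and in PEA2 (4.17, 3.88 and 3.22 TPM against 2.65, 1.53 and 3.75 TPM, 0.72 ± 0.29, adjusted p = 0.028). The libraries overlapped in PEA2 and not in OVCAR4 ResB. Both calls were lost in several settings, and were kept in 8 of 14 alternatives in OVCAR4 ResB and 6 of 14 in PEA2. Over these 14 the log2 value of PEA2 ran from 0.16 to 1.01. In OVCAR4 ResB the adjusted p was 0.49 without replicate 2 and 0.71 without replicate 3, and in PEA2 it was 0.29 without replicate 1 and 0.32 without replicate 2. The change of OVCAR4 ResB differed from that of PEO4 by 3.15 ± 0.48 on the log2 scale in a fit of all libraries (adjusted p = 1.7e-09). Those pairs were picked for their opposite calls, so that test is not independent of the calls. The antisense gene LIFR-AS1 overlaps LIFR, and the use of strand in the counting was not stated. It held 0.105 to 1.06 TPM and was called higher in PEO6 (1.88 ± 0.69, adjusted p = 0.018), where LIFR fell, higher in PEA2 (1.74 ± 0.65, adjusted p = 0.018), where LIFR rose, and lower in OVCAR3 ResA (-1.05 ± 0.44, adjusted p = 0.038), where LIFR fell.

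OSMR (chr5:38846012-38945579), which pairs with gp130 for oncostatin M, was highest in the PEA lines. PEA2 had 83.2, 67.0 and 66.3 TPM, above all other libraries, and PEA1 48.0, 23.4 and 53.1 TPM. The rise in PEA2 was 1.02 ± 0.28 (adjusted p = 0.00088) and was called without each replicate, at 0.65 to 1.31. PEA1 replicate 2 had a mitochondrial share of 7.62% against 4.02% and 3.59%. With that share in place of the block the OSMR value was 0.10 (adjusted p = 0.75) in a fit of the 6 libraries and 0.64 (adjusted p = 0.0054) in a fit of all 33.

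In the OVCAR3 family OSMR moved in opposite directions. OVCAR3 had 6.28, 6.44 and 5.70 TPM. OVCAR3 ResA had 3.51, 3.10 and 3.65 TPM, lower by -0.84 ± 0.20 (adjusted p = 0.00012), and OVCAR3 ResB 12.2, 8.47 and 27.0 TPM, higher by 1.40 ± 0.41 (adjusted p = 0.012). The 3 lines did not overlap. OVCAR3 ResB against OVCAR3 ResA gave 2.24 ± 0.40 (adjusted p = 8.7e-07) and was called without each replicate. Against OVCAR3, OVCAR3 ResB was not called without replicate 1 (1.69, adjusted p = 0.055), 2 (1.71, adjusted p = 0.098) or 3 (0.86, adjusted p = 0.052), and replicate 3 was the one with a mitochondrial share of 1.12%.

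OSMR was also higher in OVCAR4 ResB (8.01, 20 and 24.3 TPM against 7.20, 8.34 and 9.85 TPM), by 1.10 ± 0.38 (adjusted p = 0.025), but not without replicate 2 (adjusted p = 0.50) or 3 (adjusted p = 0.64). It fell in PEO4 by 0.74 (SE 0.19, adjusted p = 0.00063) and in PEO6 by 0.97 (SE 0.24, adjusted p = 0.00027), from 18.1, 12.9 and 15.6 TPM in PEO1 to 13.4, 11 and 9.95 TPM and to 9.71, 9.75 and 9.59 TPM. PEO4 overlapped with PEO1 and PEO6 did not. Without replicate 1 the adjusted p of PEO4 was 0.093, and with the mitochondrial share in place of the block the values were -0.38 (adjusted p = 0.12) in PEO4 and -0.76 (adjusted p = 0.073) in PEO6. The same fit over all 33 libraries gave -0.47 (adjusted p = 0.070) and -0.75 (adjusted p = 0.0013).

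**Figure D3:**
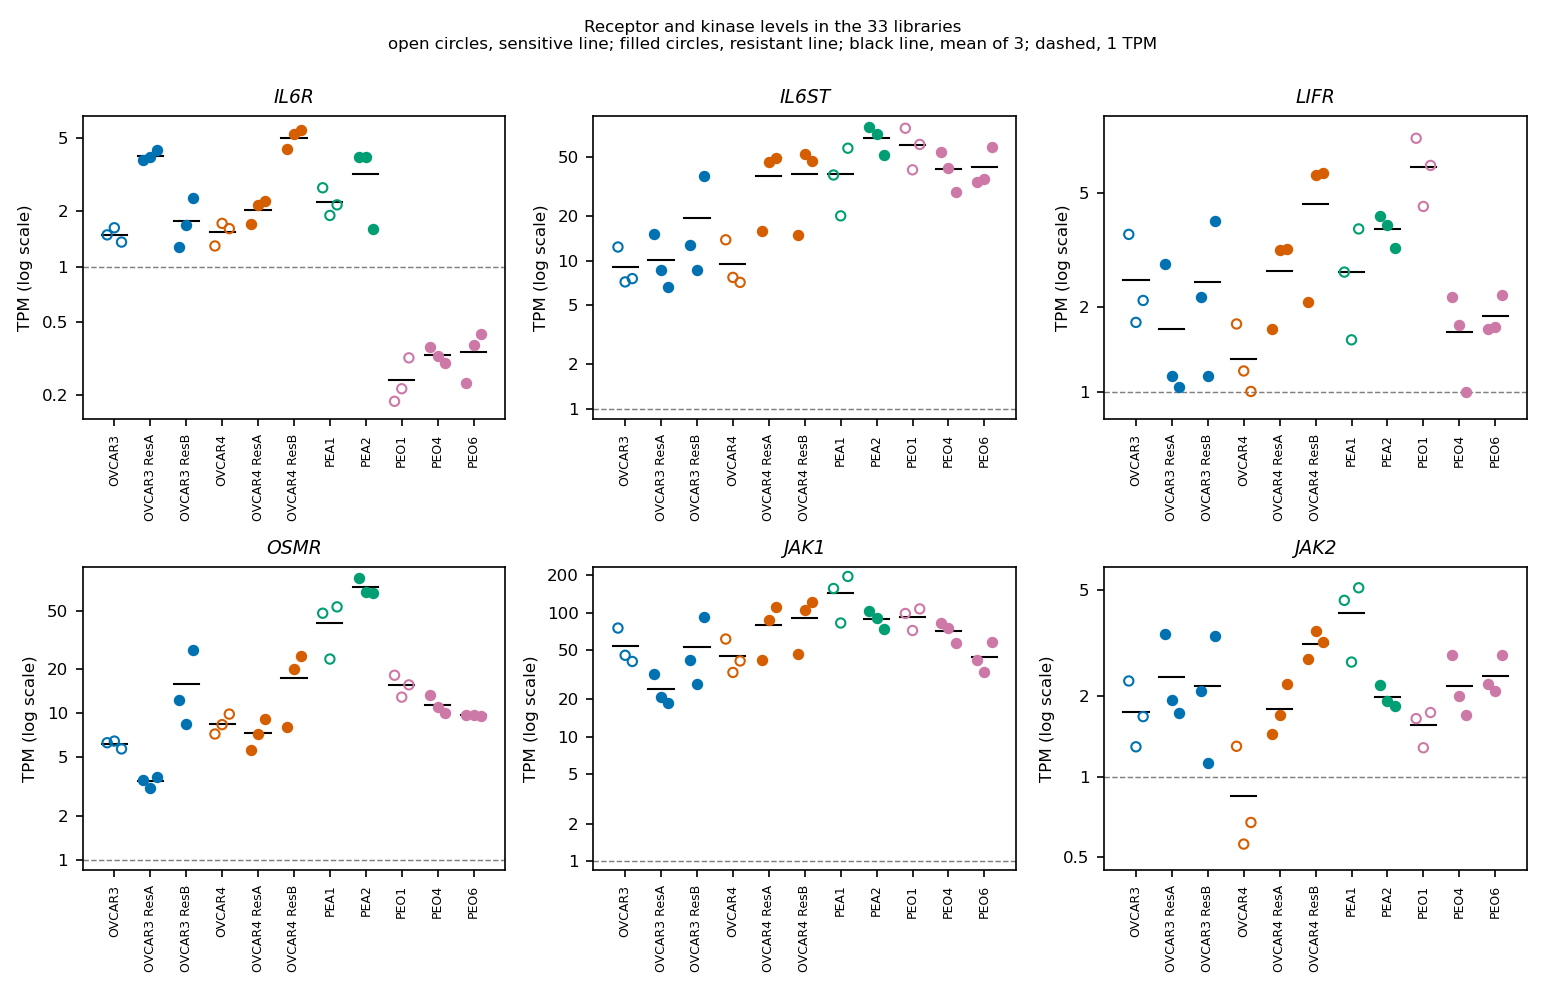
Levels of the receptors and kinases in the 33 libraries, as TPM on a log axis, by line; points are libraries, black lines are means of 3 libraries and the dashed line is 1 TPM. The 9 PEO libraries hold 0.185 to 0.432 TPM of IL6R while all libraries hold at least 6.67 TPM of IL6ST.

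The kinases JAK1 (chr1:64833229-65067746) and JAK2 (chr9:4984390-5129948) bind the receptor chains and start STAT signalling. JAK1 was at 18.9 to 195 TPM and JAK2 at 0.561 to 5.08 TPM. The JAK1 to JAK2 ratio of TPM had line means of 10.4 ± 0.81 (SD, n = 3) in OVCAR3 ResA to 59.0 ± 2.9 in PEO1. JAK1 fell in OVCAR3 ResA, from 75.1, 45.3 and 40.4 TPM to 32.3, 21.1 and 18.9 TPM (-1.28 ± 0.10, adjusted p = 9.2e-34), and in PEO6, from 98.3, 71.7 and 107 TPM to 41.6, 33.2 and 58.1 TPM (-1.10 ± 0.21, adjusted p = 2.3e-06). Neither pair overlapped, and both calls held in all 14 alternative analyses.

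JAK2 was higher in OVCAR4 ResB (2.75, 3.51 and 3.18 TPM against 1.3, 0.561 and 0.676 TPM, 1.31 ± 0.39, adjusted p = 0.0077) and in PEO6 (2.23, 2.10 and 2.85 TPM against 1.65, 1.28 and 1.74 TPM, 0.71 ± 0.30, adjusted p = 0.048). It was lower in PEA2 (2.20, 1.91 and 1.84 TPM against 4.56, 2.68 and 5.08 TPM, -0.88 ± 0.28, adjusted p = 0.0056). The libraries of these pairs did not overlap. PEO6 was not called without any 1 replicate (adjusted p of 0.22 to 0.30), OVCAR4 ResB not without replicate 2 (adjusted p = 0.38) or 3 (adjusted p = 0.42), and PEA2 not without replicate 1 (adjusted p = 0.24) or 3 (adjusted p = 0.080).

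**Figure D4:**
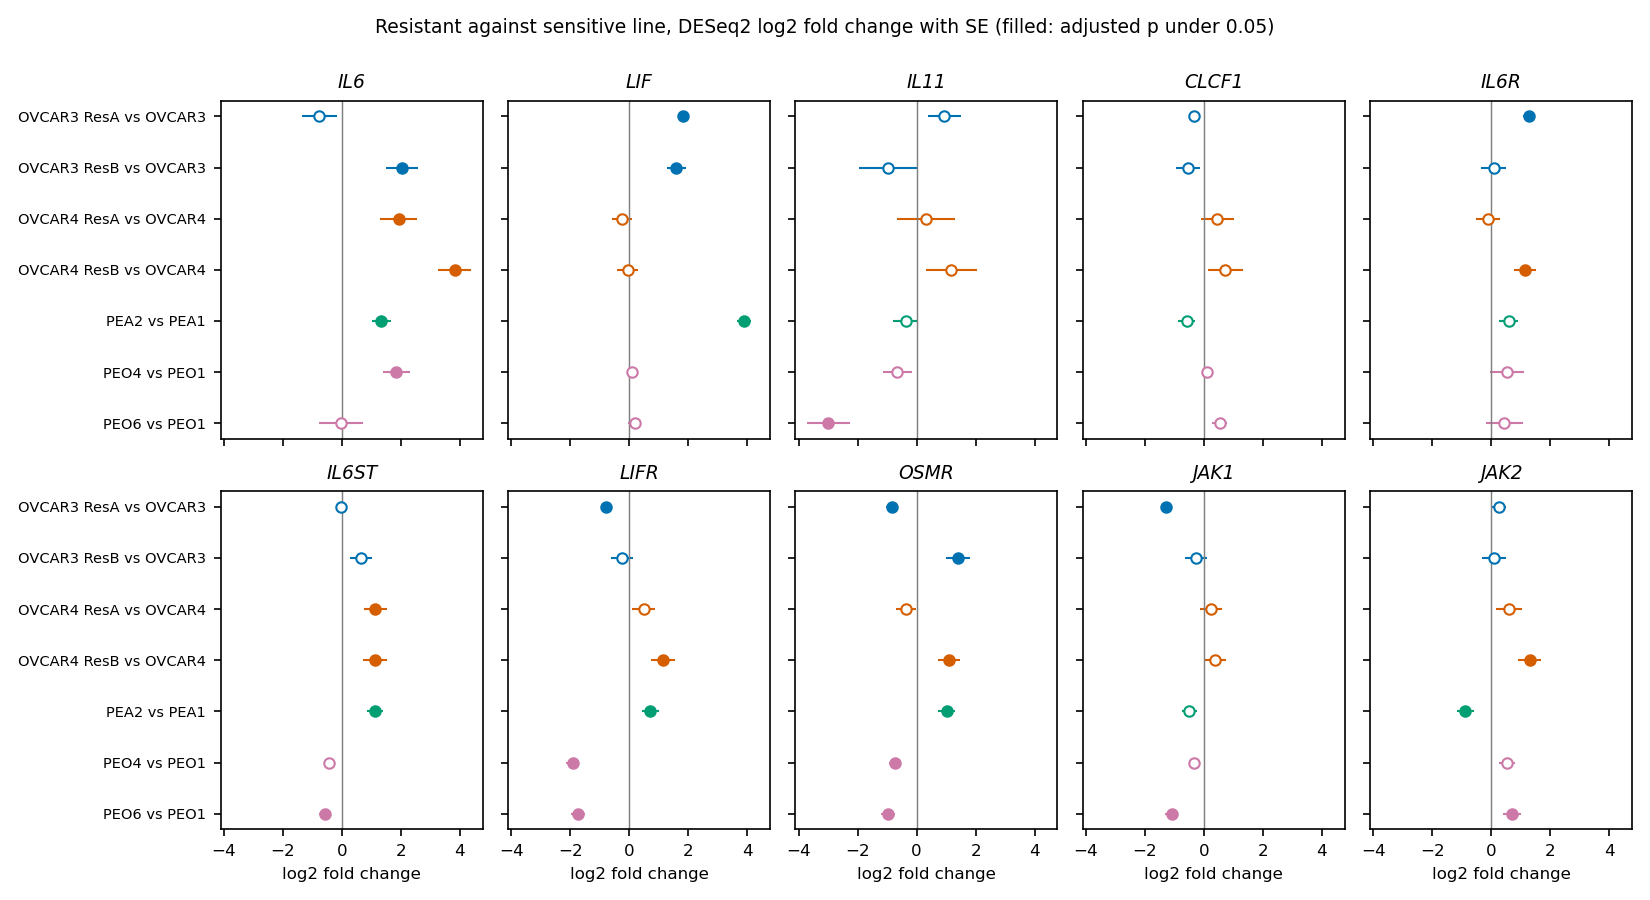
DESeq2 log2 fold change of each member in the 7 pairs of a resistant against its sensitive line, with the SE as bars; filled points have an adjusted p under 0.05. IL6 is filled and above 0 in 5 pairs, LIFR and OSMR are filled on both sides of 0, and CLCF1 is open in all 7.

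Counted together, 31 of the 70 combinations of member and pair were called (44.3%), 20 higher and 11 lower, against 29.8% of all genes tested in the 7 pairs. Of all genes, 15% were called higher and 14.8% lower. OVCAR4 ResB had 6 members called of 10, all higher, where 17.9% of all genes were called and 9.09% called higher. OVCAR3 ResB had 3, all higher, where 7.67% of genes were called and 4.1% called higher. OVCAR4 ResA had 2, both higher (11.9% of all genes, 6.68% higher). PEA2 had 6 (47% of all genes), with 5 higher (23.3%) and 1 lower (23.8%). PEO6 had 6 (41.4%), with 1 higher (21.2%) and 5 lower (20.3%). OVCAR3 ResA had 5 (44.9%), with 2 higher (22%) and 3 lower (22.9%), and PEO4 3 (33.3%), with 1 higher (16.6%) and 2 lower (16.7%). With 10 members, the counts of OVCAR3 ResA and PEO4 were near the rate of all genes. Those of PEA2, PEO6 and OVCAR4 ResA were little above it. The median log2 change of the 10 members was 1.13 in OVCAR4 ResB, 0.65 in PEA2 and 0.39 in OVCAR4 ResA, and lay between -0.31 and 0.09 in the other 4 pairs, beside medians of all genes within 0.02 of 0.

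Leaving out each replicate number in turn, 13 of these 31 calls were kept every time. In OVCAR4 ResB 1 member was called without replicate 2 and 1 without replicate 3, in OVCAR4 ResA none without either, in OVCAR3 ResB none without replicate 2 and 1 without replicate 1, and in PEO4 1 without replicate 1. By edgeR, IL6 alone was called in OVCAR4 ResB, LIF alone in OVCAR3 ResB and no member in OVCAR4 ResA.

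Resistant lines of a family were also set against each other. OVCAR3 ResB differed from OVCAR3 ResA in 4 members (13.5% of all genes), OVCAR4 ResB from OVCAR4 ResA in 5 (32.8%) and PEO6 from PEO4 in 1, IL6 (18.2%).

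When the 3 libraries of each line were added up and families were allowed for, no member was called between the 7 resistant and 4 sensitive lines by DESeq2, where 0.286% of all genes were. At an unadjusted p under 0.05 there was 1, IL6, with a log2 difference of 1.61 ± 0.65 (adjusted p = 0.53) and a higher value in 5 of 7 pairs. LIF was at 1.04 ± 0.55 (adjusted p = 0.87) and IL6R at 0.66 ± 0.35 (adjusted p = 0.88), with a higher value in 5 and 6 of 7 pairs. EdgeR called no member either.

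Whether a ligand and its receptor chains were present in the same line was counted with at least 1 TPM in all 3 libraries as present. IL6, IL6R and IL6ST were present together in 5 of 11 lines, namely OVCAR3 ResB, OVCAR4 ResA, OVCAR4 ResB, PEA1 and PEA2. IL6 was below the threshold in OVCAR3, OVCAR3 ResA and OVCAR4, IL6R in PEO4, and both in PEO1 and PEO6. Of the 4 sensitive lines PEA1 alone had the 3 chains. With 0.5 TPM in place of 1, OVCAR3, OVCAR3 ResA and OVCAR4 were added and the count was 8, and with 5 TPM it was 0, since IL6R was above 5 TPM in 2 libraries of OVCAR4 ResB and in no other.

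The ratio of IL6 to IL6R, on the TPM scale, was 65.9 ± 41 (SD, n = 3) in PEA2, 36.5 ± 21 in PEA1 and 13.1 ± 3.4 in PEO4. It was 0.246 ± 0.080 in OVCAR3 ResA and 0.596 ± 0.073 in OVCAR4, where receptor exceeded ligand. IL6ST exceeded IL6R in every line, by 2.58 ± 1.3 in OVCAR3 ResA to 267 ± 130 in PEO1.

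LIF, LIFR and IL6ST were present together in all 11 lines, and with 5 TPM in none, since the lowest LIFR library of each line was below 5 TPM. Some lines were close to the threshold of 1 TPM. The lowest LIFR library was at 1.01 TPM in PEO4 and in OVCAR4 and at 1.04 TPM in OVCAR3 ResA. The LIF to LIFR ratio was 61.0 ± 4.6 in PEA2 and 2.27 ± 0.33 to 15.5 ± 7.9 in the other lines. IL11, IL11RA and IL6ST were present together in PEA1, where IL11RA, the alpha receptor of IL-11, was at 2.27 ± 0.34 TPM. PEA2 and PEO1 had IL11 but IL11RA below 1 TPM in at least 1 library. With 0.5 TPM the count was 5, and by the mean of the 3 libraries it was 3.

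CLCF1 was present in all 11 lines, but CNTFR, its alpha receptor, was present in none. OSM was at most at 0.105 TPM and 3 counts in any library, while OSMR and IL6ST were present in all lines.

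**Figure D5:**
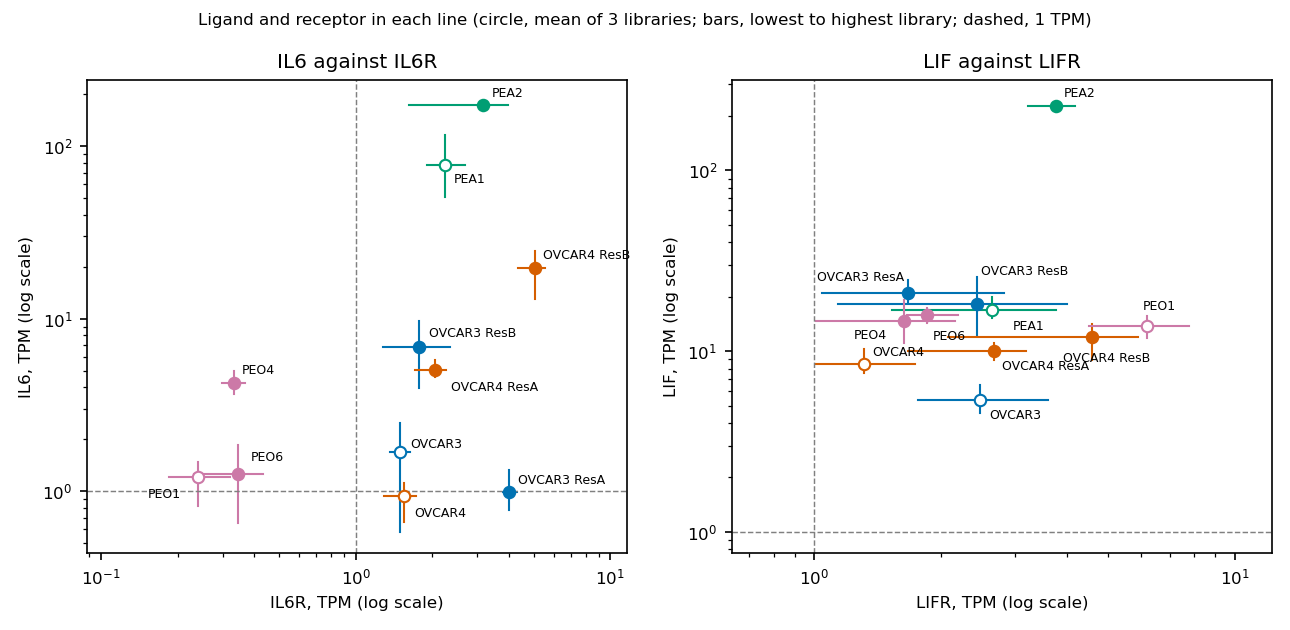
Mean TPM of ligand against receptor in each line, both on log axes, for IL6 with IL6R and LIF with LIFR; bars run from the lowest to the highest of 3 libraries and dashed lines mark 1 TPM. PEO1, PEO4 and PEO6 lie left of 1 TPM of IL6R, and PEA2 lies above the other lines for both ligands.

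The rest of the pathway was described with 46 further genes over the 7 pairs. Of the 273 combinations with an adjusted p, 95 were called (34.8%), 51 higher and 44 lower, beside 29.8% of all genes. The 6 signal transducers had 7 calls higher and 7 lower. STAT3, the main transducer of gp130, was called in PEO4 alone (-0.90 ± 0.18, adjusted p = 9.4e-06). The 7 other ligands and cofactors had 4 calls, 3 of them higher, and among the 4 other receptors IL11RA fell by 1.75 in PEA2 (SE 0.54, adjusted p = 0.0040), with an adjusted p of up to 0.24 when any 1 replicate was left out. ADAM17, a protease that sheds IL6R, rose in PEA2 by 1.34 ± 0.28 (adjusted p = 8.9e-06), with a log2 value of 0.97 to 1.62 when 1 replicate was left out.

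The 8 feedback regulators had 6 calls higher and 10 lower, 28.6% of 56 combinations and near the 29.8% of all genes. SOCS3, the inhibitor that binds gp130, rose in PEA2 from 19.0 ± 1.5 to 41.4 ± 2.0 TPM (1.25 ± 0.23, adjusted p = 3.6e-07) and in OVCAR4 ResB from 20.7 ± 2.7 to 69.7 ± 5.5 TPM (1.19 ± 0.39, adjusted p = 0.020), the latter with an adjusted p of up to 0.18 without replicate 2 or 3. It fell in PEO4 from 7.50 ± 2.47 to 1.34 ± 0.17 TPM (-2.42 ± 0.29, adjusted p = 4.6e-15), a pair in which IL6 rose, and in OVCAR3 ResA (-0.80 ± 0.13, adjusted p = 1.4e-08). CISH, a related inhibitor known from STAT5 signalling, fell by 3.84 in PEO4 (SE 0.29, adjusted p = 1.1e-37) and by 4.26 in PEO6 (SE 0.36, adjusted p = 4.5e-31).

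Of the 19 STAT3 response genes, which are known targets that other factors also regulate, PEA2 had 7 calls higher and 1 lower among 17 tested. That was 47.1% beside 47% of all genes (23.3% higher and 23.8% lower), with a median log2 change of 0.48 beside -0.02 for all genes. SERPINA3, an acute-phase protease inhibitor, was at 195 ± 66 TPM in PEA2 against 1, 0 and 1 counts in PEA1, at least 1658-fold higher on the CPM scale with a floor of 3 counts per library. The acute-phase gene SAA1 rose from 240 ± 43 to 1467 ± 129 TPM (2.74 ± 0.22, adjusted p = 2.1e-33), and IL4R from 10.8 ± 2.4 to 54.2 ± 3.1 TPM (2.55 ± 0.24, adjusted p = 5.7e-25). LRG1, an acute-phase glycoprotein, rose by 3.87 ± 0.33 (adjusted p = 7.0e-30). The gene called lower was NNMT, with a log2 change of -2.67 (DESeq2 adjusted p = 1.2e-26), and it was called in all 14 alternatives.

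The other pairs with higher IL6 gave other counts, and the difference between pairs was not tested. PEO4 had 6 calls higher and 2 lower of 17 tested (47.1%, beside 33.3% of all genes), with SAA1 up by 2.77 ± 0.59 (adjusted p = 1.8e-05) and IL4R down, at -1.65 ± 0.19 (adjusted p = 1.9e-16). OVCAR4 ResB had 3 higher and 4 lower (41.2%, beside 17.9%), with IL4R up by 2.21 ± 0.37 (adjusted p = 1.4e-07) and a median of -0.15, and 3 of these 7 calls were kept without each replicate, the others being lost without replicate 2 and without replicate 3. OVCAR3 ResB had 5 higher and 1 lower (35.3%, beside 7.67%), with ICAM1, an adhesion molecule, up by 1.89 ± 0.35 (adjusted p = 5.3e-06). Of those 6 calls, 2 were kept without each replicate, ICAM1 and CEBPD, and IL4R, PIM1 and SAA1 were lost without replicate 1 or 2 and NNMT without replicate 2. OVCAR4 ResA had 0 higher and 2 lower in DESeq2 (11.8%, beside 11.9%), CEBPB and ICAM1, and neither was called without replicate 2 or 3. In OVCAR3 ResA and PEO6, where IL6 was not called, the counts were 4 higher with 6 lower of 15 tested (66.7%, beside 44.9%) and 5 higher with 3 lower of 17 (47.1%, beside 41.4%).

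By the Pearson r over the 11 line means of log2(TPM + 1), the rows most like IL6 were LOC646626 (r = 0.95), AC002480.3 (0.95) and CCAT1 (0.94), and those most like LIF were SLC37A2 (0.96), CD163L1 (0.94) and TMEM200A (0.94). All 6 had their highest mean in PEA2. For IL11 they were UHRF1 (0.97), ZWILCH (0.92) and C12orf75 (0.91), with the highest mean in PEA1. These were the top 3 of 13184 or 13185 rows each, over 11 points of which several share a family, and are a description.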

How the data were processed

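Poly(A) RNA of 11 cell lines was sequenced in 33 libraries. Groups and replicate numbers came from the sample titles. Per the labels and the study's methods, the reads were converted with DRAGEN, aligned to GRCh38 and summarised per gene with salmon. The authors deposited expected counts per gene and library, which are not normalised, and a table of TPM, which the authors scaled to gene length and to an equal sum per library, so that TPM carries no depth. No per-sample column was left out.

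Expected counts were rounded to whole numbers and compared in R 4.3.3 with DESeq2 1.42.0 (Wald test, median-of-ratios size factors, no filter before the fit, replicate number as a block as in the study's methods, Benjamini-Hochberg adjusted p under 0.05 over all genes). The fits were also run on counts simulated from the mean profile of OVCAR4 with a fixed spread. Those counts held no block effect and no differences in mitochondrial share, so they do not test the fits for these features. At the level of lines, counts were summed over 3 libraries with family as a term. Differences between families were contrasts in a fit of all 33 libraries. The quasi-likelihood test of edgeR 4.0.16, limma 3.58.1 on log2(TPM + 1) and log2(TPM + 0.1), other size factors, filters and omitted replicates were alternatives, and fits with the mitochondrial rRNA share were added after the data had been seen. Because the labels do not say whether replicates are separate cultures, p-values may measure technical spread. A fold against a line with 3 or fewer counts in each library used that floor.

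The numbers paired the libraries in 2 comparisons, OVCAR3 ResA against OVCAR3 and OVCAR4 ResB against OVCAR4 ResA, where libraries with 1 number shifted away from the mean of their own line together (every correlation above 0.1). In the other 8 they did not, though the block was kept there. Correlations by replicate were -0.66, -0.54 and -0.33 in OVCAR4 ResA against OVCAR4. They were -0.63, -0.57 and -0.22 in OVCAR4 ResB against OVCAR4 and -0.51, -0.22 and -0.57 in PEO6 against PEO4.

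The members, gene lists and tests were chosen with earlier results of these data known. The rule named the 10 members, called genes of the pathway lists, the 3 rows most like IL6, LIF and IL11 among genes of at least 5 TPM in a line mean, and rows overlapping a member. Coordinates and promoters are from RefSeq GRCh38.p14, matched by symbol. Some genes of the pathway lists are not reported here by name.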

Additional observations from a re-analysis of the deposited data

Results flagged for a closer look

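Resistant lines of the same family differed in 10 member results (DESeq2, resistant line against resistant line). OVCAR3 ResB had more IL6 (2.79 ± 0.55 on the log2 scale, adjusted p = 1.3e-05), OSMR (2.24 ± 0.40, adjusted p = 8.7e-07) and JAK1 (1.02 ± 0.37, adjusted p = 0.048) than OVCAR3 ResA and less IL6R (-1.21 ± 0.39, adjusted p = 0.017), where 13.5% of all genes were called. JAK1 was not called without replicate 1, 2 or 3 (adjusted p of 0.081 to 0.32), nor IL6R without replicate 1 (adjusted p = 0.29) or 2 (adjusted p = 0.26). The mitochondrial rRNA share was 1.12% in OVCAR3 ResB replicate 3 and 5.57% in OVCAR3 ResA replicate 3. Its part in these values was not tested beyond the added fit, in which JAK1 was at 1.09 (adjusted p = 3.3e-10).

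OVCAR4 ResB had more IL6 (1.90 ± 0.32, adjusted p = 5.6e-08), IL6R (1.25 ± 0.19, adjusted p = 3.3e-10), OSMR (1.47 ± 0.18, adjusted p = 4.6e-15), JAK2 (0.72 ± 0.24, adjusted p = 0.011) and LIFR (0.67 ± 0.17, adjusted p = 0.00035) than OVCAR4 ResA, where 32.8% of all genes were called. IL6, IL6R and OSMR were called without each replicate. LIFR was not called without replicate 2 (adjusted p = 0.19) or 3 (adjusted p = 0.11), and JAK2 not without replicate 1, 2 or 3 (adjusted p of 0.061 to 0.39). Same-numbered libraries of these lines had like mitochondrial shares (9.23% and 13.1% in replicate 1, 2.02% and 2.47% in replicate 2).

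PEO6 had less IL6 than PEO4 (-1.90 ± 0.57, adjusted p = 0.0071), its only called member there, where 18.2% of all genes were called. The call was lost without replicate 1 (adjusted p = 0.097) and 2 (adjusted p = 0.43).

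Between families, the pair with the largest called rise was set against the pair with the largest called fall for each member that had both. The differences were 1.76 ± 0.46 for IL6ST (OVCAR4 ResA minus PEO6, adjusted p = 0.00085), 3.15 ± 0.48 for LIFR (OVCAR4 ResB minus PEO4, adjusted p = 1.7e-09), 2.42 ± 0.49 for OSMR (OVCAR3 ResB minus PEO6, adjusted p = 9.0e-06) and 2.19 ± 0.24 for JAK2 (OVCAR4 ResB minus PEA2, adjusted p = 5.1e-18). The pairs were picked for opposite calls, so these tests are not independent of the calls.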

How the results depend on the processing

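No direction of a called member result was reversed in any of the 14 alternatives, and 18 of the 41 member calls in the 10 comparisons were kept without each replicate. Depth limits IL6 and IL11, with 12 and 3 counts in their lowest libraries.

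By edgeR, members called were 1 in OVCAR3 ResB, 0 in OVCAR4 ResA and 1 in OVCAR4 ResB (3, 2 and 6 by DESeq2). With limma on log2(TPM + 1) or log2(TPM + 0.1) at a mean TPM of at least 1 they were 0, 0 and 1, with 2 in PEO6 against PEO1, 2 in OVCAR3 ResB against OVCAR3 ResA and 0 in PEO6 against PEO4. Without that filter they were 0, 0 and 0, 2 in PEA2, 3 in PEO6 against PEO1, 0 in OVCAR3 ResB against OVCAR3 ResA, 2 between the OVCAR4 derivatives and 0 in PEO6 against PEO4. OVCAR4 ResA had 1 with independent filtering off. In 1 fit of all 33 libraries OVCAR3 ResA had 3 (5 before) and PEO6 against PEO4 3 (1 before). With the mitochondrial share in place of the block, chosen after the data had been seen, PEO6 had 3 against PEO1 and 4 against PEO4, and in the fit of all 33 libraries OVCAR4 ResA had 5, OVCAR3 ResB against OVCAR3 ResA 7 and PEO6 against PEO4 3. The causes were not tested.

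Leaving out 1 replicate number gave 0 to 3 members in OVCAR3 ResB, 0 to 3 in OVCAR4 ResA, 1 to 7 in OVCAR4 ResB, 1 to 4 in PEO4, 2 to 3 between the OVCAR3 derivatives, 3 to 4 between the OVCAR4 derivatives and 0 to 3 in PEO6 against PEO4. For the pathway list it gave 60 to 93 calls (95 with all), the lowest without replicate 2.

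Without the replicate block, PEO6 against PEO4 had 3 members called, and no other member count left a factor of 1.5. The pathway list had 98. Over all genes the block moved the calls of OVCAR4 ResA from 3462 without it to 1784 with it, of OVCAR4 ResB from 4765 to 2853 and of OVCAR4 ResB against OVCAR4 ResA from 2094 to 5218. Every library correlated best with its own number in none of the 10 comparisons.

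IL6 with its receptors was present in 8 lines at 0.5 TPM and 0 at 5 TPM, LIF with its receptors in 0 at 5 TPM, and IL11 with its receptors in 5 at 0.5 TPM, 0 at 5 TPM and 3 by the mean of 3 libraries.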
